A study of Mus musculus with 4 samples.

Results

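The insulin-like growth factor (IGF) axis was followed in 9 genes: the ligand Igf1, the receptors Igf1r and Igf2r, and the binding proteins Igfbp2, Igfbp3, Igfbp4, Igfbp5, Igfbp6 and Igfbp7. They were listed by gene name, with earlier results of these data known. Their probes are all non-control probes whose accession belongs to 1 of these genes. The array held 13 such probes on 26 spots, among 20887 genes named on the array. Of the 9 genes, 8 gave at least 1 probe that was well above background in a genotype on 3 or more of the 4 arrays. Igfbp7 did not, and it was left out of the tests together with 1 of the 4 Igf1 probes. Igfbp6 and 2 of the Igf1 probes passed this filter through the transgenic cultures alone.

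IGF1 is a secreted growth factor that signals through the receptor tyrosine kinase encoded by Igf1r, and from there through insulin receptor substrates, PI3-kinase and AKT to growth, survival and differentiation. The binding proteins hold IGF in the extracellular space, prolong its life and keep it from or deliver it to the receptor, and proteases release it again. In the brain IGF1 is made by neurons and glia, microglia and astrocytes among them, and it is known to act on neural precursors and on myelination.

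The cultures came from C57BL/6 mice that were wild type (WT) or carried APPswe/PS1dE9, a pair of transgenes with mutations of familial Alzheimer's disease that are driven by the mouse prion promoter. Telencephalon was taken from embryos at day 13, its neural precursor cells grew as floating neurospheres with EGF and FGF2 for 5 days, and the spheres were then plated without EGF and FGF2 and differentiated for 7 days. Both media contained B-27, a supplement that includes insulin. From 100 ng of total RNA, labelled material of 1 APPswe/PS1dE9 and 1 WT culture was hybridised together on each of 4 two-colour Agilent arrays, and the dyes were exchanged: replicates 1 and 2 had Cy3 on the APPswe/PS1dE9 material, replicates 3 and 4 had Cy5. The design text calls the replicates biological without tying them to single animals or litters, so p-values measure only the spread between these arrays.

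Of the 59305 non-control spots, 47.5% to 59.6% were well above background per array and genotype, and none was saturated. Xist, the RNA that silences an X chromosome in female cells, was detected in both cultures of replicates 2 and 4, while Eif2s3y of the Y chromosome was in neither. On replicate 1 Eif2s3y was above background in the APPswe/PS1dE9 culture alone, on replicate 3 in the WT culture alone, and Xist ran the other way. Replicates 2 and 4 are therefore given apart as the arrays matched for these genes. App itself was at a log2 ratio of 0.12 ± 0.06 (SE, n = 4 arrays, adjusted p = 0.281), and whether its probe reads the transgene was not tested. Prnp, whose promoter drives the transgenes, was at 0.75 ± 0.20 (adjusted p = 0.0659). The markers of the labelled cells were measured: 12 of 12 neuronal, 15 of 15 astrocyte, 10 of 10 oligodendrocyte-lineage and 10 of 10 progenitor genes passed the filter on low signal.

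The first comparison asked whether the genes of the axis differed between the genotypes. Igf1, Igfbp2 and Igfbp5 were higher in the APPswe/PS1dE9 cultures, by 1.36-fold, 1.57-fold and 1.41-fold. Igf1r, Igf2r, Igfbp3, Igfbp4 and Igfbp6 did not pass the threshold of 0.05 after Benjamini-Hochberg adjustment over all 20591 features in limma. Thus 3 of 8 tested genes were called higher and 0 lower, where 8.25% of all features were called higher and 2.28% lower. Before adjustment, limma's p for Igf1r was 0.0912, and it was the 1 gene of the 8 with a ratio below 0. With each array centred on its median in place of loess, the split over all features was 1308 higher and 1307 lower in place of 1698 and 470. With replicate 3 left out it was 519 and 29, and with replicate 4 left out 368 and 4. The median log2 ratio of APPswe/PS1dE9 over WT was 0.25 over the 8 genes and 0.01 over all features. Of the 8 ratios, 7 were above 0, among them Igfbp6, which passed the filter on low signal through APPswe/PS1dE9 alone. With 4 arrays, an exact two-sided sign-flip test of a single gene cannot give a p below 0.125, so no such test was used.

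**Figure D1:**
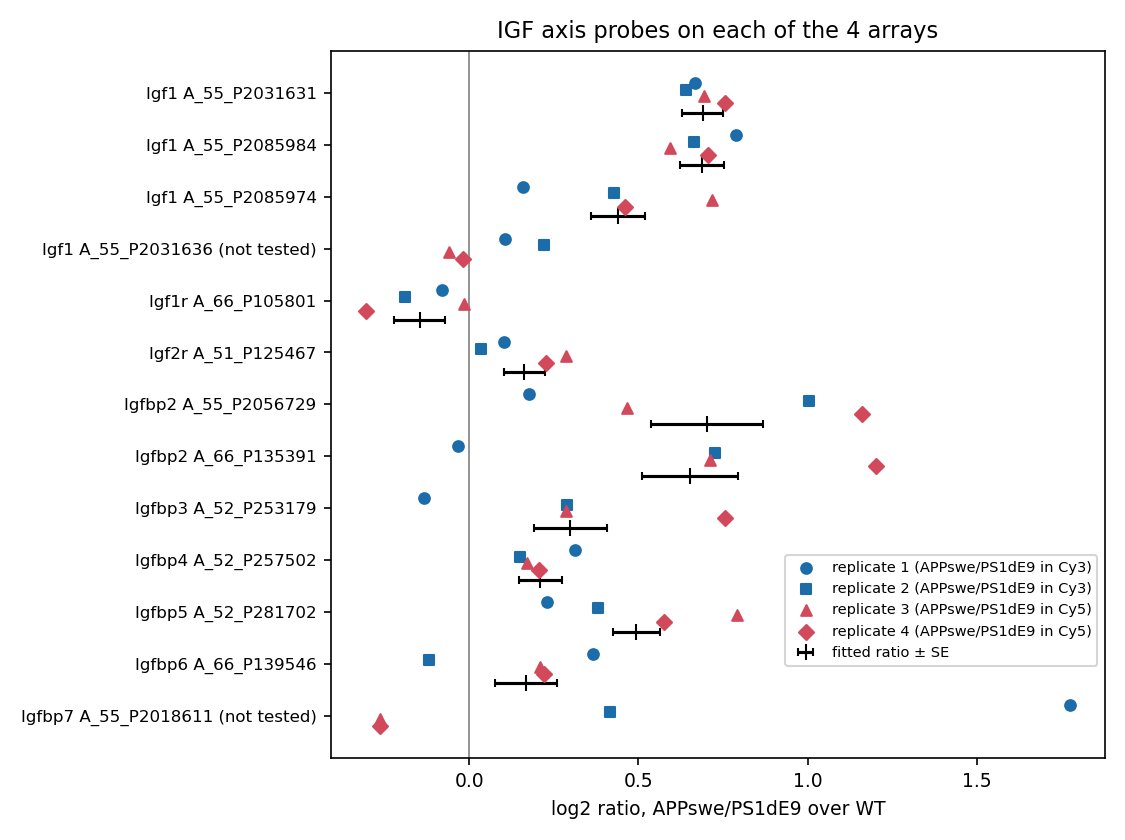
The log2 ratio of APPswe/PS1dE9 over WT (horizontal axis) is plotted for each of the 13 probes of the IGF axis (vertical axis), with 1 marker per array and the fitted ratio ± SE as a bar for the 11 tested probes. Igf1, Igf2r, Igfbp4 and Igfbp5 lie above 0 on all 4 arrays with the probe that stands for the gene, Igf1r lies below 0 on all 4, and the main Igfbp2 probe runs from -0.03 to 1.20.

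By size of the fitted ratio, Igfbp2 ranked 525 from the top of all 20591 features, Igfbp5 ranked 928 and Igf1 ranked 1108. The 95% intervals of these 3 genes overlapped. Across the arrays, 4 of the 8 genes were above 0 on all 4 arrays, against 17% of the features measured on all 4. Igf1r was below 0 on all 4, as were 11.7% of those features.

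Igf1 was read by 4 probes of 2 spots each. The probe that stands for the gene, the brightest (A_55_P2085974), had log2 levels of 7.73, 7.72, 8.16 and 8.28 in the APPswe/PS1dE9 cultures of replicates 1 to 4 and of 7.58, 7.29, 7.45 and 7.82 in the WT cultures. Both groups were well above background on all 4 arrays. The levels of the groups overlapped, because the WT culture of replicate 4 was above the APPswe/PS1dE9 cultures of replicates 1 and 2, but within each array the APPswe/PS1dE9 culture was the higher. The log2 ratios were 0.16, 0.43, 0.72 and 0.46, for a fitted ratio of 0.44 ± 0.08 (SE, n = 4, 95% interval 0.25 to 0.63, adjusted p = 0.0213). The call was lost with replicate 3 left out (0.38, adjusted p = 0.136), with replicate 4 left out (0.50, adjusted p = 0.1) and on replicates 2 and 4 alone (0.44, adjusted p = 0.18).

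The Igf1 probes A_55_P2031631 and A_55_P2085984 were dimmer, and both passed the filter on low signal through APPswe/PS1dE9 alone. A probe that passes in this way is bound to lean towards APPswe/PS1dE9, so their values are given as a description and not as support for the Igf1 call. On A_55_P2031631 the APPswe/PS1dE9 levels were 7.69, 7.45, 7.80 and 7.80 and the WT levels 7.02, 6.81, 7.10 and 7.04. The WT signal was well above background on replicates 1 and 3 alone, so the ratios on replicates 2 and 4 are set against a signal not well above background. The ratios were 0.67, 0.64, 0.70 and 0.76 and the fitted ratio 0.69 ± 0.06 (adjusted p over all kept probes = 0.00198), where 6.86% of probes were called higher and 1.89% lower. On A_55_P2085984 the levels were 7.49, 7.29, 7.67 and 7.59 against 6.71, 6.63, 7.08 and 6.88, again with WT well above background on replicates 1 and 3 alone. Its fitted ratio was 0.69 ± 0.06 (adjusted p = 0.00249). The remaining probe, A_55_P2031636, was above background in both genotypes on replicates 3 and 4 alone, with ratios of 0.11, 0.22, -0.06 and -0.02, and was not tested. The size of these ratios moved with the processing: with an offset of 16 in place of 50, A_55_P2031631 was at 0.88 and A_55_P2085984 at 0.92. With the scanner software's own processed signals, which differ in background correction and normalisation together, they were at 1.20 and 1.39, while A_55_P2085974 was at 0.55 and lost its call (adjusted p = 0.0835). A difference between the probes was not tested, and the files do not say which transcript each probe reads.

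Microglial and macrophage markers were higher in APPswe/PS1dE9 as well. Of 20 listed genes 15 were tested, and 8 of these passed the filter on low signal through APPswe/PS1dE9 alone. Of the 7 that passed in both genotypes 6 rose, with a median log2 ratio of 1.39, where 8.25% of all features were called higher. Over all 15, where 14 rose, the median was 1.99, which is the ratio of a gene whose WT signal was not well above background on most arrays. Over replicates 1 to 4 the medians of the tested genes were 2.09, 1.89, 1.81 and 1.78. The probe that stands for Igf1 gave 0.16, 0.43, 0.72 and 0.46. The dimmer Igf1 probes gave 0.67, 0.64, 0.70 and 0.76 (A_55_P2031631) and 0.79, 0.66, 0.59 and 0.71 (A_55_P2085984). The order over the arrays thus differed between Igf1 probes. The summed level of the tested genes was 15640 to 20180 in APPswe/PS1dE9 and 10310 to 12460 in WT, without C1qa on replicate 4, where it gave no value. The sums weigh the brightest gene most, which was Itgam, at a mean log2 level of 13.08 in APPswe/PS1dE9 and 12.97 in WT and not called. P2ry12, Ptprc, Fcgr3 and Spi1 were too dim to be tested, and Cd68 was not matched to a probe. In bulk cultures, more cells of a type and more RNA per cell cannot be told apart, and the part of these cells in the Igf1 ratio was not tested.

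The sequence of 250 bases before an annotated start of Igf1 is shown because the gene is the ligand among the 3 called genes, and the same window follows for Igfbp2 and Igfbp5. The windows come from RefSeq (GRCm38.p6), which matched all 9 genes. Both strands were searched for 5 motifs, matches are in capitals whichever strand they lie on, and overlaps between motifs were allowed. Of the 32851 RefSeq promoters of the same length, 7.02% hold the STAT-type palindrome TTCNNNGAA. The GC box of SP factors, GGGCGG, is in 32.7% of them and the box spelled CCAAT in 33.8%. The letters TATAAA of the TATA box are in 12.4%, and the AP-1-type pattern TGANTCA, with any base at N, is in 6.75%. A match is a description of the letters and not a site of binding. The table gives 1 start for Igf1, which lies downstream of the first base of the annotated gene, so the window is not that of the gene's most upstream start. It held a CCAAT match 142 bases and a TGANTCA match, with the letters TGAATCA, 37 bases before the start.

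Igf1, chr10:87860861-87861110, plus strand: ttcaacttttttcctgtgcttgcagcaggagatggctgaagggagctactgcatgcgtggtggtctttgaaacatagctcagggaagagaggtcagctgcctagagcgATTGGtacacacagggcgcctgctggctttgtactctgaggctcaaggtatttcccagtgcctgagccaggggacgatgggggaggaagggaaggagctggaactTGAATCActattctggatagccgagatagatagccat

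Of the receptors, Igf1r encodes the tyrosine kinase that carries the IGF1 signal. Its single probe had log2 levels of 9.44, 9.30, 9.80 and 9.61 in APPswe/PS1dE9 and of 9.52, 9.49, 9.81 and 9.91 in WT. The groups overlapped, and the ratios of -0.08, -0.19, -0.01 and -0.30 were all below 0. The fitted ratio was -0.15 ± 0.07 (95% interval -0.33 to 0.03, adjusted p = 0.277). With 1 array left out at a time the ratio ran from -0.22 (without replicate 3) to -0.07 (without replicate 4), with no call. The interval over all 4 arrays leaves out a rise of the size of the called genes and does not leave out 0. Within either genotype, the range over the arrays was wider than the difference between genotypes on any array.

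Igf2r encodes the cation-independent mannose-6-phosphate receptor, which binds IGF2 and carries it to lysosomes without a growth signal. Its probe was printed on 10 spots, which gives the technical spread within an array. The APPswe/PS1dE9 levels were 9.49, 9.46, 9.87 and 9.76 and the WT levels 9.39, 9.42, 9.58 and 9.54. The ratios were 0.10 ± 0.08, 0.03 ± 0.13, 0.29 ± 0.09 and 0.23 ± 0.06 (SD over 10 spots). All 10 spots were above 0 on replicates 1, 3 and 4, and 6 of 10 on replicate 2. The fitted ratio was 0.16 ± 0.06 (95% interval 0.02 to 0.31, unadjusted p = 0.0347, adjusted p = 0.156), so the small difference did not pass over all features.

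**Figure D2:**
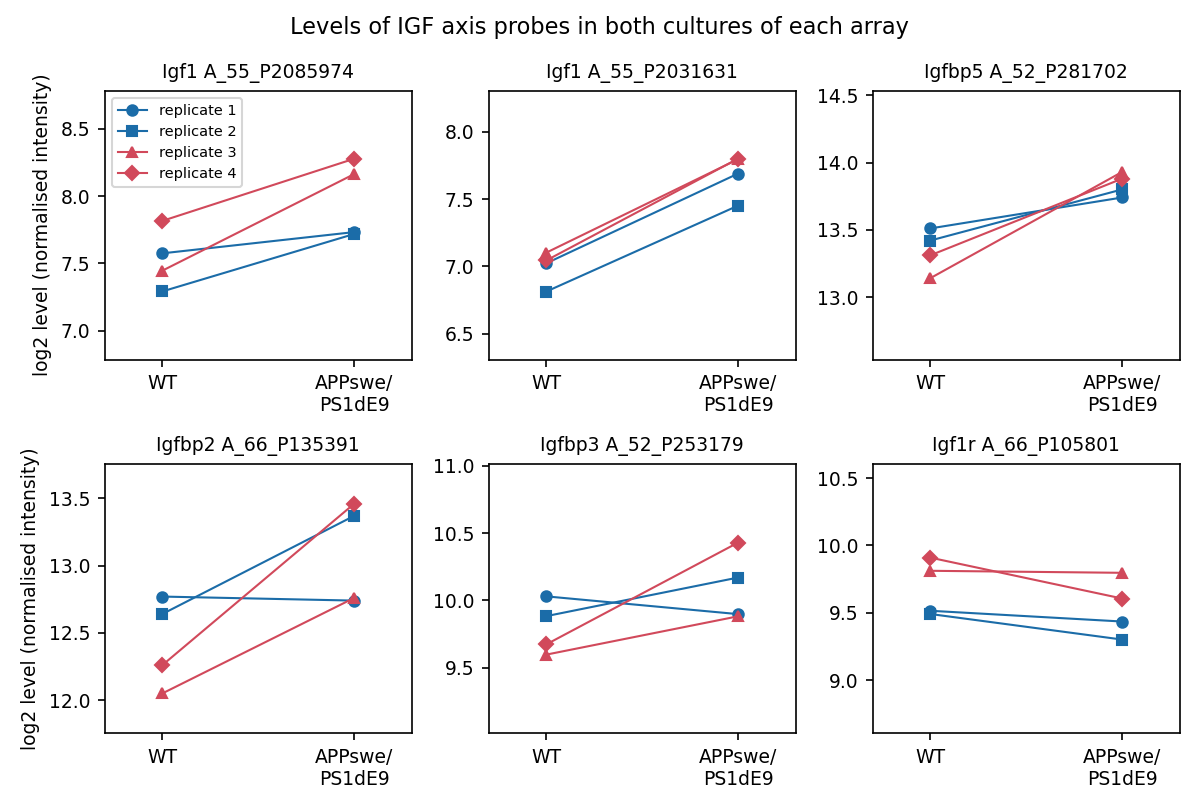
Log2 levels (vertical axis, normalised intensity, each panel 2 log2 units high) of 6 probes in the WT and the APPswe/PS1dE9 culture of each array, joined by a line per array. All lines rise for Igf1 and Igfbp5, the replicate 1 line is close to flat for Igfbp2 and falls for Igfbp3, and all lines fall for Igf1r.

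Igfbp2 and Igfbp5 are neighbours on chromosome 1, with 0 protein-coding genes between them in the RefSeq order, and both were called higher. Igfbp2, a binding protein of the developing brain, choroid plexus and astrocytes, was read by 2 probes. On A_66_P135391 the levels were 12.74, 13.37, 12.76 and 13.46 in APPswe/PS1dE9 and 12.77, 12.64, 12.05 and 12.26 in WT. The APPswe/PS1dE9 cultures of replicates 2 and 4 stood above all others, and on replicate 1 the WT culture was slightly the higher. The ratios of -0.03, 0.73, 0.71 and 1.20 gave 0.65 ± 0.14 (95% interval 0.31 to 1.00, adjusted p = 0.0396). On A_55_P2056729 the levels were 12.41, 13.09, 12.28 and 13.21 against 12.23, 12.09, 11.81 and 12.04, with no WT culture above an APPswe/PS1dE9 culture. Its ratios of 0.18, 1.00, 0.47 and 1.16 gave 0.70 ± 0.17, which did not pass over all kept probes (adjusted p = 0.0549). On both probes replicate 1 was the lowest ratio and replicate 4 the highest.

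On the arrays matched for Xist and Eif2s3y alone, Igfbp2 was at 0.96 ± 0.16 (SE, 2 arrays, adjusted p = 0.0273 in limma without the dye term). It was the 1 gene of the 8 called there, where 2.28% of features were called higher and 0.0534% lower. With replicate 3 left out, the ratio was 0.77 and the call was lost (adjusted p = 0.131). With replicate 4 left out, it was 0.53 and the call was lost too (adjusted p = 0.214).

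RefSeq gives 2 starts for Igfbp2. The upstream window held 3 GGGCGG matches, 113, 98 and 37 bases before the start, and the downstream window a TGANTCA match 39 bases before its start.

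Igfbp2, upstream start, chr1:72824230-72824479, plus strand: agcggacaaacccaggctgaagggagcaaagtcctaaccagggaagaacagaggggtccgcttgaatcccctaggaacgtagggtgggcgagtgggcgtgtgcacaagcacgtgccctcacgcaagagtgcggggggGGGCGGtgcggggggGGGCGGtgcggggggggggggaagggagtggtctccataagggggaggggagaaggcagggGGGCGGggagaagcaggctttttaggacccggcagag
Igfbp2, downstream start, chr1:72825137-72825386, plus strand: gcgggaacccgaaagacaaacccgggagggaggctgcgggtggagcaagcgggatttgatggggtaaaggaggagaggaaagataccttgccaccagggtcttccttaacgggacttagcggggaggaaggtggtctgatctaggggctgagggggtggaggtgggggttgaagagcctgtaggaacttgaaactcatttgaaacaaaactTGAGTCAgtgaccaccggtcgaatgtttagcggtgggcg

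Igfbp5 encodes a binding protein of the extracellular matrix and is the most conserved of the family. Its probe had levels of 13.74, 13.80, 13.93 and 13.88 in APPswe/PS1dE9 (mean 13.84 ± 0.08 SD) and of 13.51, 13.42, 13.14 and 13.31 in WT (13.34 ± 0.16). The groups did not overlap, and it was the 1 gene of the 8 for which this held with the probe that stands for the gene, against 8.03% of all features. No gene of the 8 had every WT level above every APPswe/PS1dE9 level, against 4.53% of all features. The ratios of 0.23, 0.38, 0.79 and 0.58 gave 0.49 ± 0.07 (95% interval 0.32 to 0.66, adjusted p = 0.00943). On the matched arrays the ratio was 0.48 but did not pass (adjusted p = 0.164). The call was lost with replicate 3 left out (0.44, adjusted p = 0.0821) and with replicate 4 left out (0.55, adjusted p = 0.0657). None of the 5 motifs was found in its window.

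Igfbp5, chr1:72874866-72875115, minus strand: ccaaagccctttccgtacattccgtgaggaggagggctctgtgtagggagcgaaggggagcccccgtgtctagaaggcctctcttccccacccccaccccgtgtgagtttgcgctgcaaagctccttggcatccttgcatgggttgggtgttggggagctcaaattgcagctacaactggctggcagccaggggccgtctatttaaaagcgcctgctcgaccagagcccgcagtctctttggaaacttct

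Igfbp3, the main IGF carrier of blood, was at levels of 9.90, 10.17, 9.88 and 10.43 in APPswe/PS1dE9 and of 10.03, 9.88, 9.60 and 9.67 in WT. As for Igfbp2, replicate 1 lay below 0 and replicate 4 was the highest, with ratios of -0.13, 0.29, 0.29 and 0.76. The fitted ratio was 0.30 ± 0.11 (95% interval 0.04 to 0.56, adjusted p = 0.149). The ratio depended on single arrays. It was 0.41 and passed with replicate 1 left out (adjusted p = 0.0298), 0.19 with replicate 2 left out (adjusted p = 0.368) and 0.18 with replicate 4 left out (adjusted p = 0.428).

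Igfbp4, which restrains IGF and is cut by the protease PAPP-A, had the steadiest ratios of the binding proteins. Its levels were 7.58, 7.24, 7.48 and 7.64 in APPswe/PS1dE9 and 7.27, 7.09, 7.31 and 7.43 in WT. The ratios of 0.31, 0.15, 0.17 and 0.21 were above 0 on all 4 arrays and gave 0.21 ± 0.06 (95% interval 0.06 to 0.36, adjusted p = 0.0971). The groups overlapped, since the arrays differed from each other by more than the genotypes within an array.

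Igfbp6, which prefers IGF2 to IGF1, was dim: APPswe/PS1dE9 was above background on 3 arrays and WT on 2. Its ratios of 0.37, -0.12, 0.21 and 0.22 gave 0.17 ± 0.09 (95% interval -0.05 to 0.39, adjusted p = 0.312). With replicate 1 left out the ratio was 0.05, and with replicate 2 left out 0.29, with no call in either case. Igfbp7, a related protein that binds IGF weakly and is made by vessels, was above background in both cultures of replicate 1 and on no other array. There its level was 8.35 in APPswe/PS1dE9 and 6.58 in WT, a ratio of 1.78, while the other arrays gave 0.42, -0.26 and -0.26. The Igfbp7 ratio therefore rests on 1 array and was not tested.

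The ratios of the 3 called genes differed between the dye orientations. Igf1 averaged 0.29 on replicates 1 and 2 and 0.59 on replicates 3 and 4, Igfbp2 0.35 and 0.96, and Igfbp5 0.31 and 0.68. The fit takes this difference into its dye term. The SE rests on the spread within an orientation, moderated by limma towards the spread shared over all features. Without the dye term Igf1 and Igfbp5 kept their calls (adjusted p = 0.035 and 0.0248), and Igfbp2 did not (adjusted p = 0.0647). The dye term itself was called in 0 features after adjustment.

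Astrocyte markers were higher beside the binding proteins: 10 of 15 were called. Over all features, 8.25% were called higher and 2.28% lower. The astrocyte markers had a median log2 ratio of 0.46 and summed levels of 209800 to 235000 in APPswe/PS1dE9 and 140900 to 181300 in WT. The highest was Slc25a18 at 1.32 and the lowest Fgfr3 at 0.05. Of the choroid plexus markers 4 of 8 tested rose, from Ttr at 1.06 to Enpp2 at 0.02, with sums of 9221 to 13820 against 7732 to 8529. Of the ependymal markers 7 of 8 rose (6 of the 7 that passed the filter in both genotypes), from Ccdc153 at 1.84 to Mcidas at 0.13, with sums of 14980 to 19360 against 9169 to 11080. Mural cell markers, of which 4 of 10 were tested, had array medians of -0.30, 0.26, 0.05 and 0.39, lowest on replicate 1 and highest on replicate 4 as for Igfbp2 and Igfbp3. This was not particular to mural markers. Of the pathway lists below, proteins related to the binding proteins had medians of 0.05, 0.27, 0.18 and 0.46. Receptors and adaptors had -0.10, -0.07, 0.05 and 0.07. The sums of the mural markers were 14610 to 27020 against 12810 to 18150, Tagln was at 0.46 (adjusted p = 0.217) and Pdgfrb fell by 0.45. The part of these cell types in the Igfbp2, Igfbp3 and Igfbp5 ratios was not tested.

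The remaining marker lists gave the following, where 8.25% of all features were called higher and 2.28% lower. Among the microglial genes the range ran from Ctss at 2.52, whose WT signal was above background on 1 array, to Itgam at 0.11 (adjusted p = 0.552). Another kept Itgam probe was at 0.32. Of 10 tested meningeal fibroblast markers 2 rose and 1 fell, from S100a4 at 1.28 to Lum at -0.62, where Lum passed the filter through WT alone. The median of this list was -0.09, while its sums were 14870 to 16570 against 9766 to 10620, and the genes called higher were S100a4 and Thy1. Of 6 tested endothelial markers 2 were called higher. Of these, Flt1 passed the filter through APPswe/PS1dE9 alone and was 1.32-fold higher by the fitted ratio, with WT above background on no array. The lowest was Kdr at 0.04, with -0.16 on its other probe. Cdh5, Tek, Tie1, Cldn5, Emcn and Esam were too dim to test. Of 12 neuronal markers 2 rose and 4 fell, from Syt1 at 0.43 to Nefm at -0.80. Of 10 oligodendrocyte-lineage markers 0 were called, from Cspg4 at 0.32 to Olig2 at -0.21. Of 10 progenitor markers 3 rose and 1 fell, from Vim at 0.97 to Hes5 at -0.63.

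Around these genes, 77 other genes of the pathway were listed by role and 63 were tested. Of the 63, 6 rose and 3 fell, where 8.25% of all features were called higher and 2.28% lower. Their median log2 ratio was 0.01, equal to that of all features at this precision. With replicate 3 left out 1 rose and 1 fell, and with replicate 4 left out 0 were called in either direction. Among the other ligands and carriers, Igfbpl1, an IGFBP-like secreted protein of developing neurons, fell on all 4 arrays by 0.56 on the log2 scale (± 0.09, adjusted p = 0.0128). Its ratios were -0.82, -0.79, -0.10 and -0.54, so replicate 3 was the weakest. Igf2, the ligand of the fetal brain and its coverings, was above background on 2 arrays in APPswe/PS1dE9 and 1 in WT, with ratios of -0.04, 0.00, 0.11 and -0.01, and was not tested. Ins2, its neighbour on chromosome 7, was at 0.12 (adjusted p = 0.257). Igfals, the acid-labile subunit of the circulating complex, and Igfbp1, the neighbour of Igfbp3 on chromosome 11, were above background on 0 arrays.

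Of the 8 tested proteins related to the binding proteins, 1 rose: Ccn5, a matricellular protein, at 0.79, 1.70, 0.86 and 1.70 per array and 1.26 ± 0.19 overall (adjusted p = 0.0111). It was the highest of the pathway genes and was called on the matched arrays too (1.70, adjusted p = 0.00141). Of the proteases and their inhibitors 2 of 5 rose: Mmp2, a gelatinase able to cut binding proteins, at 0.54 ± 0.07 (adjusted p = 0.00737), and Timp1, an inhibitor of metalloproteinases, at 0.76 ± 0.08 (adjusted p = 0.00348). Mmp2 was at 0.85, 0.58, 0.36 and 0.38 per array and Timp1 at 0.84, 0.54, 0.72 and 0.93, so both were above 0 on every array. Pappa and Pappa2, the pappalysins that cut Igfbp4 and Igfbp5, and their inhibitors Stc1 and Stc2 were too dim to test.

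Of 13 receptors and adaptors beside Igf1r, 1 rose. It was Irs4, an insulin receptor substrate, at 0.37 ± 0.07 (adjusted p = 0.0269), with ratios of 0.67 and 0.81 on replicates 1 and 2 and of -0.13 and 0.11 on replicates 3 and 4. Insr, the insulin receptor, was at -0.20 ± 0.10 (adjusted p = 0.269), and its other probes were at -0.23 and -0.05. Irs1 was at -0.04 ± 0.07 (adjusted p = 0.756) and Irs2 at 0.16 ± 0.07 (adjusted p = 0.257). Igf1r, Insr, Irs1 and Irs2 thus gave no call in either direction.

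Of 14 genes of the PI3-kinase and AKT step, Inpp5d rose and Pik3r3 fell. Inpp5d, which encodes the lipid phosphatase SHIP1 of blood cells and microglia, was at 0.69, 1.96, 0.65 and 0.77 per array and 1.02 ± 0.19 overall (adjusted p = 0.0248), with WT above background on 3 arrays. Pik3r3, a regulatory subunit of PI3-kinase, was at -0.41, -0.32, -0.22 and -0.15 and fell by 0.28 (± 0.06, adjusted p = 0.0407). Of 14 genes of the FOXO, GSK3 and mTOR branch 1 rose: Foxo1, a transcription factor that AKT holds out of the nucleus, at 0.34 ± 0.06 (adjusted p = 0.0203), with 0.29 on its other probe. Of 5 genes that relay growth hormone to Igf1 transcription 1 fell: Socs2, an inhibitor of that relay, by 0.30 (± 0.06, adjusted p = 0.034), with -0.34 and -0.31 on its other probes. Neither of the 2 tested Igf2 mRNA-binding proteins was called.

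**Figure D3:**
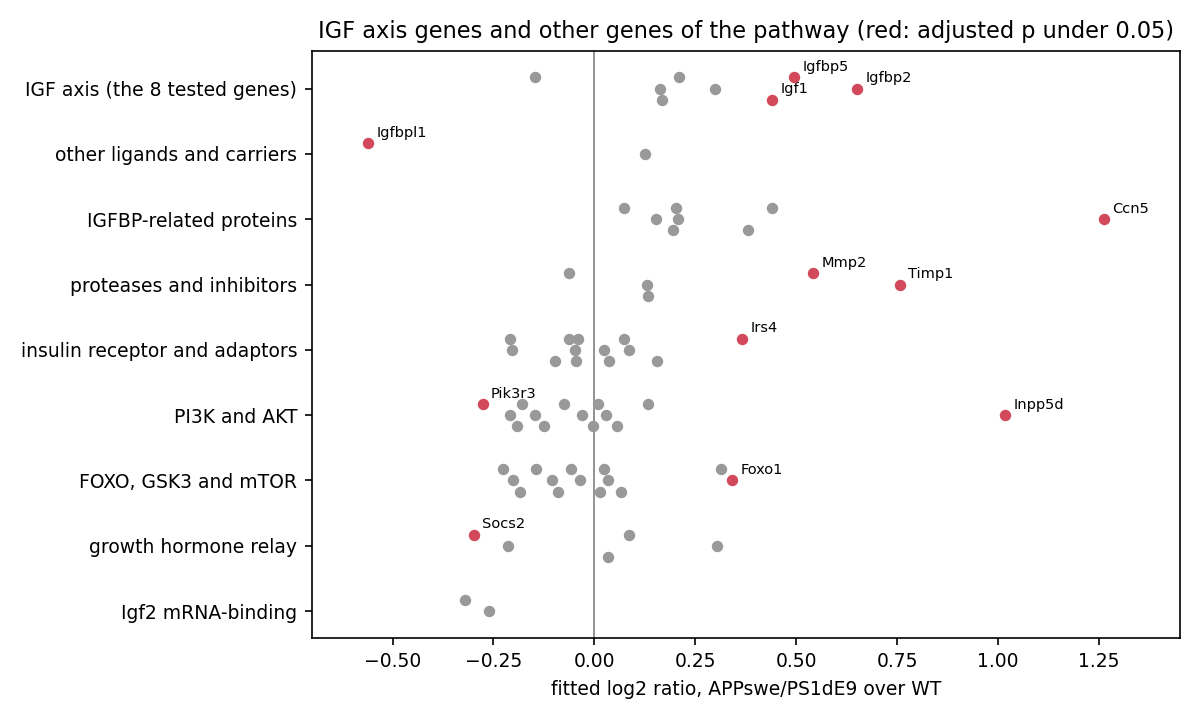
Fitted log2 ratio of APPswe/PS1dE9 over WT (horizontal axis) for the 8 tested genes of the IGF axis and 63 other tested pathway genes, in rows by role, with genes past the threshold in red and named. The axis genes lie mostly above 0 and the receptor, PI3-kinase and mTOR rows are spread around 0.

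The genes whose 4 ratios lay closest to those of each called gene were found among 13622 named genes by Euclidean distance. For Igf1 they were Dusp3 (0.0905), Adam15 (0.119) and Vstm2l (0.125). For Igfbp5 they were Fth1 (0.0944), Adam15 (0.142) and Vstm2l (0.149), so Adam15 and Vstm2l stood near both. For Igfbp2 they were Tubb6 (0.198), Bace2 (0.265) and Palld (0.271), at larger distances. Over 4 arrays this likeness is a description alone.

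**Figure D4:**
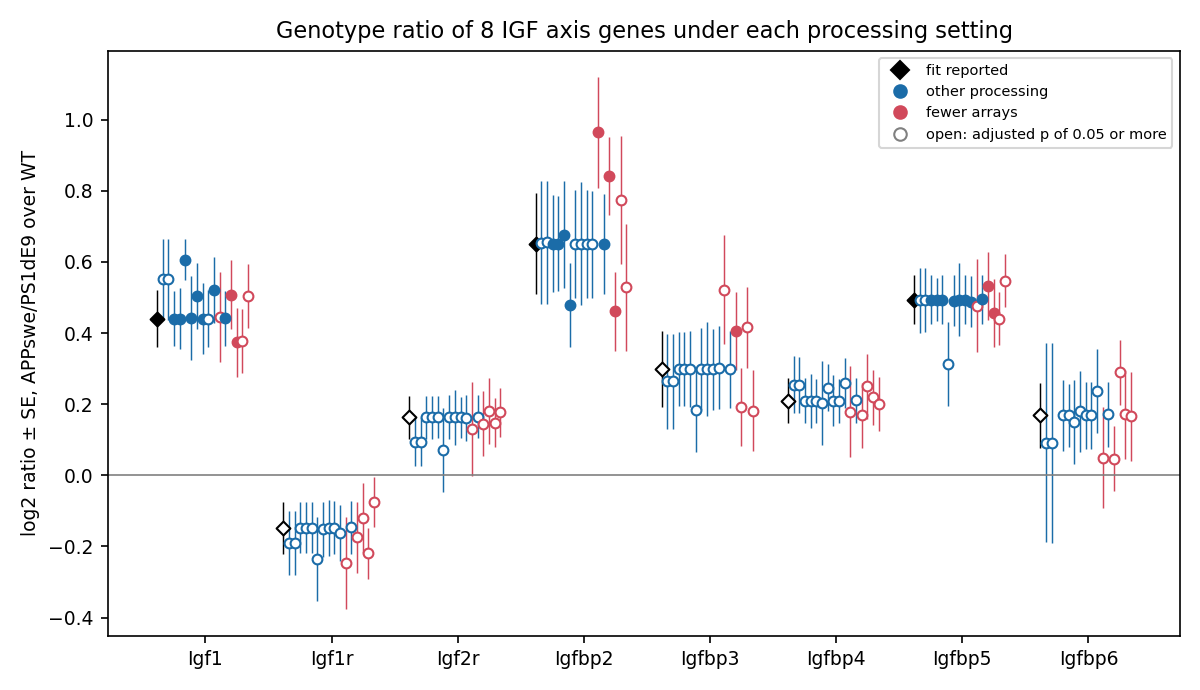
Fitted log2 ratio ± SE (vertical axis) of the 8 tested genes of the IGF axis (horizontal axis) as reported (diamond), under other processing of all 4 arrays and with fewer arrays; filled symbols passed the threshold. No gene changed the sign of its ratio, and the calls of Igf1, Igfbp2 and Igfbp5 were open under 6, 8 and 6 of 16 settings.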

How the data were processed

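Scanner files of 4 arrays were used. The authors deposited spot intensity values not yet normalized: median foreground and local background of both channels, per the file headers, read with Feature Extraction 11.0.1.1 on 1 slide in 1 scan (array annotation mm9). The deposited files also hold processed signals and a log10 ratio, Cy5 over Cy3. The authors' deposited table of 29350 rows holds log2 ratios of those processed signals, as a comparison with the scanner files showed (slopes of -1.00, -1.00, 1.00 and 1.00 on log2 Cy5 over Cy3), running APPswe/PS1dE9 over WT and not centred, with medians of -0.0797, -0.155, -0.0373 and -0.0378.

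In R 4.3.3 with limma 3.58.1, background was corrected by normexp (offset 50) and each array was normalised by loess, with control and outlier spots at weight 0 and then left out. Spots of a probe were averaged. Probes well above background in a genotype on at least 3 of 4 arrays were kept (26912 of 55681). Names came from RefSeq (GRCm38.p6, a different build from the array's), which matched 27509 probes, and a gene was read from its kept probe of highest mean intensity. The 20591 features were fitted with lmFit and eBayes (genotype and dye terms; 2 degrees of freedom between arrays, 4.13 from the prior). P-values are two-sided and Benjamini-Hochberg adjusted over all features, or over all kept probes where said. Levels are log2 values per channel after loess and Aquantile. Scripts were tested on simulated data. Precision is limited by the number of arrays.

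The members, gene lists and tests were chosen with earlier results of these data known. Named genes are all members, pathway genes past the threshold together with Igf2, Insr, Irs1 and Irs2, the highest and lowest tested gene of each marker list and, for called members, the 3 genes nearest in their 4 ratios. Other list members (dim genes, Thy1) were named after their values were seen. Of the alternatives, those on single Igf1 and Igfbp2 probes and on the pathway counts, and the 5 motifs, were chosen after seeing the data.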

Additional observations from a re-analysis of the deposited data

How the results depend on the processing

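There were 16 alternatives (15 for Igfbp6, which gave no value when both channels had to be above background on all arrays). Of 127 values of the 8 genes, 106 kept their direction and their side of the threshold, 20 lost the call, 1 gained it and 0 changed sign. Igf1, Igfbp2 and Igfbp5 kept their calls in 10, 8 and 10 of 16 alternatives, and the other genes had no call to lose. Some alternatives, such as no dye term, changed the test and left the ratio as it was. The log2 ratio of Igf1 lost its call with Feature Extraction's processed signals (0.55, adjusted p = 0.0769), the authors' deposited table (0.55), no filter on dim probes (0.44, adjusted p = 0.0693) and the matched arrays alone (0.44, adjusted p = 0.18). Igfbp2 lost it with the processed signals (0.65, adjusted p = 0.109), the authors' deposited table (0.66), no background subtraction (0.65), no dye term (0.65), no filter (0.65) and an offset of 16 (0.65, adjusted p = 0.0582). Igfbp5 lost it with the processed signals (0.49, adjusted p = 0.0658), the authors' deposited table (0.49), median centring (0.31, adjusted p = 0.0573) and the matched arrays (0.48). Leaving out 1 array at a time gave 0.37 to 0.51 for Igf1, 0.46 to 0.84 for Igfbp2, 0.18 to 0.42 for Igfbp3 and 0.44 to 0.55 for Igfbp5, and -0.22 to -0.07 for Igf1r and 0.05 to 0.29 for Igfbp6, which gained no call. Without replicate 3 or without replicate 4 the calls of Igf1 (adjusted p = 0.136 and 0.1), Igfbp2 and Igfbp5 were all lost, with 1 residual degree of freedom. Without replicate 1 or without replicate 2, at the same residual degrees of freedom, the calls of these genes were all kept. The second Igfbp2 probe gained a call in 5 of 10 alternatives.

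Features called higher and lower numbered 1698 and 470. They were 719 and 240 with the processed signals, 725 and 238 with the authors' deposited table, 950 and 103 without the filter, and 470 and 11 on the matched arrays. Lower features were 1307 with median centring, 298 without background subtraction and 259 without the dye term. Leaving out 1 array gave 368 to 2256 higher and 4 to 517 lower. Of the pathway genes, 6 higher and 3 lower became 3 and 1 with the processed signals, the authors' deposited table and no filter, and 3 and 0 on the matched arrays. Lower pathway genes were 8 with median centring and 1 without the dye term, and leaving out 1 array gave 0 to 9 higher and 0 to 2 lower. The 9 called pathway genes kept their sign throughout, and calls held in 14 of 16 alternatives for Timp1, 12 for Ccn5 and Igfbpl1, 13 for Mmp2, 12 of 15 for Inpp5d, 9 for Foxo1, 8 for Socs2, 7 for Irs4 and 5 for Pik3r3. The cause of these changes was not tested. The fit is paired throughout, since each log2 ratio sets the 2 cultures of 1 array against each other. Array and slide could not be separated further, with 1 slide and 1 scan.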
